A study of Homo sapiens with 8 samples.

Results

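The loci of the 3 RUNX transcription factor genes were followed through 8 ATAC-seq peak lists of 697 and KOPN-8, 2 human lines of acute lymphoblastic leukaemia of the B lineage. ATAC-seq uses the Tn5 transposase to cut and tag accessible DNA, so a peak marks a stretch of open chromatin. Members were all peaks that overlap 36.10 to 36.60 Mb of chromosome 21 (RUNX1), 45.25 to 45.55 Mb of chromosome 6 (RUNX2) or 25.20 to 25.32 Mb of chromosome 1 (RUNX3) in hg19. These windows held 388 of the 532743 peaks. Peaks that shared at least 1 base were merged into regions, which gave 44 regions at RUNX1, 36 at RUNX2 and 10 at RUNX3, or 90 of 133028 regions in all.

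The groups were 697 cells of SETD2 clone BM_B, 697 cells with an empty guide vector, KOPN-8 cells of SETD2 clone BA and KOPN-8 cells with an empty guide vector, with 2 libraries each. The labels call both clones heterozygous for the SETD2 knockout and the empty vector cells SETD2 wild type. SETD2 is the methyltransferase that trimethylates lysine 36 of histone H3 along transcribed genes. Each knockout group is 1 clone, and whether the control cells were cloned is not stated in the labels, so the edit and the choice of clone cannot be told apart. The labels call libraries of a group biological replicates without saying how cultures were separated, so their spread may be partly technical.

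RUNX proteins bind DNA through a shared Runt domain together with their partner CBFB. RUNX1 is needed for blood stem cells and for early B cell development, and is a frequent target of fusions in childhood leukaemia. RUNX2 is best known as the master factor of bone formation, and RUNX3 acts in T cells, natural killer cells and activated B cells, where it can repress RUNX1. Each gene is known for a distal promoter and a proximal promoter, which give proteins with different first residues.

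The promoter sequences of RUNX2 and RUNX3 are shown because the spacing of the starts they belong to was compared with the spacing of open regions. They are RefSeq windows of 300 bases in GRCh38.p14, from 250 bases before to 50 bases from an annotated start, written in the direction of the gene. All 3 genes matched the table, which gives 2 windows each for RUNX2 and RUNX3 and 1 for RUNX1. Capitals mark the RUNX motif, searched as TGTGGT or TGCGGT on both strands, so that a match on the other strand reads ACCACA or ACCGCA.
RUNX3 upstream window (chr1:24964961-24965260, minus strand): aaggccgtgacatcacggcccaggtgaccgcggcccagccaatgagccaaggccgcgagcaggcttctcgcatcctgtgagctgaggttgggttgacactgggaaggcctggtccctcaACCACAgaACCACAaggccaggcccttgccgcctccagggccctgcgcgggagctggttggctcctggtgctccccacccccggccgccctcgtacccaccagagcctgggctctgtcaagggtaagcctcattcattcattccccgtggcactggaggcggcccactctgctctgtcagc
RUNX3 downstream window (chr1:24930227-24930526, minus strand): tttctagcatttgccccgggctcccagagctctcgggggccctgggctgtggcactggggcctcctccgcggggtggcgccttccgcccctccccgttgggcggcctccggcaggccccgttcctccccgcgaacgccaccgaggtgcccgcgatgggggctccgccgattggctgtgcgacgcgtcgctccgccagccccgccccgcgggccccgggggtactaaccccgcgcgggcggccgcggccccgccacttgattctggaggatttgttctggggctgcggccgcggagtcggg
RUNX2 upstream window (chr6:45328080-45328379, plus strand): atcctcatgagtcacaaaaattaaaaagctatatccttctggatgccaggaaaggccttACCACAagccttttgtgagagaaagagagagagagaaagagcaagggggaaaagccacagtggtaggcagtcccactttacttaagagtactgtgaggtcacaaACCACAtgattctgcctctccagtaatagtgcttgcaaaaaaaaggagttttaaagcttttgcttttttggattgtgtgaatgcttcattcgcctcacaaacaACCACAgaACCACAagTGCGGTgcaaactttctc
RUNX2 downstream window (chr6:45422025-45422324, plus strand): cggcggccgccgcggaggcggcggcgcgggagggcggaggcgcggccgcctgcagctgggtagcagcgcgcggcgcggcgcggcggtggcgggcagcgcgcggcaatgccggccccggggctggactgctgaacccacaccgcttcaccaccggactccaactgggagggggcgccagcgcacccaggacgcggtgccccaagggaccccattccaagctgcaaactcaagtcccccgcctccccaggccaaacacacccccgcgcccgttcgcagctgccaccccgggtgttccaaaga

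The upstream window of RUNX2 held 5 matches and that of RUNX3 held 2, while both downstream windows and the RUNX1 window held 0. Of all 35116 windows in the table, 19.6% held at least 1 match, 2.32% at least 2 and 0.0114% at least 5. The upstream windows shared an unbroken run of 18 bases that carries 2 of the matches, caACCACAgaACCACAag, at position 265 of the RUNX2 window and 118 of the RUNX3 window. This run was found in 2 of the 35116 windows, these 2. The windows also differed in CpG dinucleotides, with 2 in the upstream and 39 in the downstream window of RUNX2, 15 and 38 in those of RUNX3, 40 in the RUNX1 window and a median of 14 over the table. A match in these letters is a description and shows no binding.

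The peak lists are in hg19 and no hg19 annotation or genome was used, so no region was assigned to a promoter, an exon or an intron. Spacings within a gene were compared instead, without converting a position. The 2 annotated starts of RUNX3 lie 34.7 kb apart. Among the 15 pairs of RUNX3 regions called in all 4 libraries of at least 1 line, only the pair at chr1:25255897-25257074 and chr1:25291378-25292096 in hg19, with centres 35.3 kb apart, spans that distance. The 2 annotated starts of RUNX2 lie 93.9 kb apart. Among 153 such pairs of RUNX2 regions, only the pair at chr6:45295624-45296538 and chr6:45389145-45390274, with centres 93.6 kb apart, spans it. Both RUNX3 regions of that pair were called in all 4 KOPN-8 libraries and in 0 libraries of 697, while both RUNX2 regions of their pair were called in all 8 libraries. How often pairs span other distances of this size was not computed, so a matching spacing assigns no region to a start.

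The lists held between 57154 and 76495 peaks, or 19.3 to 25.8 peaks per Mb of the spanned genome. They give no read counts, so the read depth is unknown, and a region that was not called may be open at a level below detection. List lengths differ between libraries, so peaks are given as a share, in peaks per 10000 peaks of the list. The value deposited with each peak was read as its fold over the local background. It is the authors' value and is printed to describe a peak. Its percentile is the percentage of peaks in the same list with a lower value. Folds and percentiles of different lists are set side by side as descriptions, with no test. The lists differ in length, so such values show no change between libraries or lines.

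**Figure D1:**
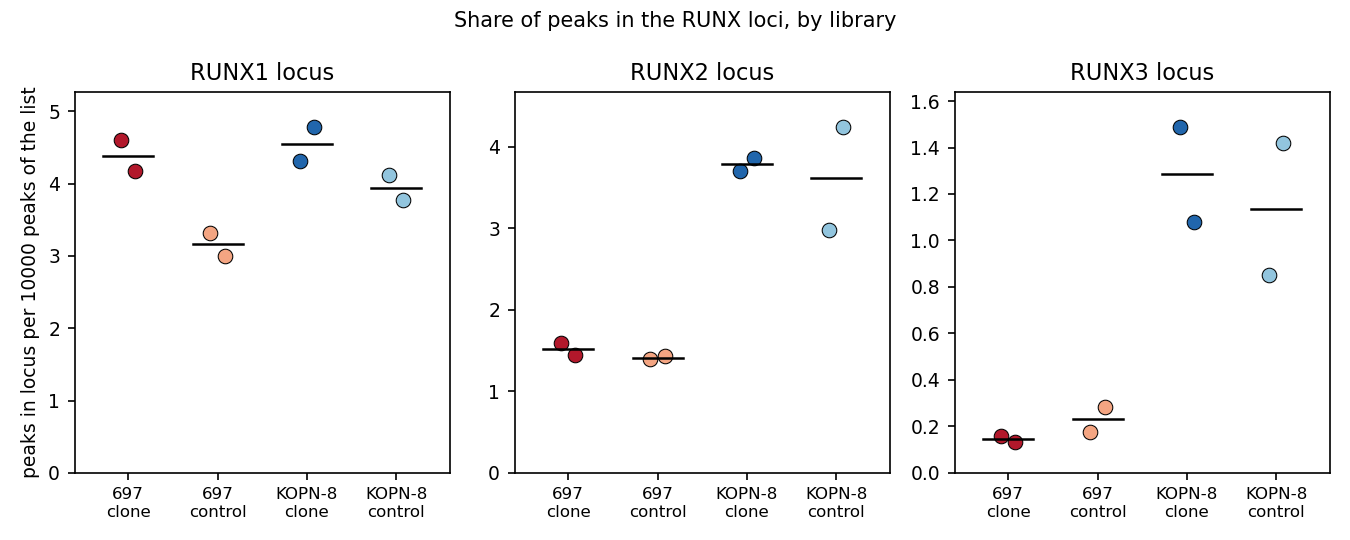
Peaks in each locus per 10000 peaks of the list (vertical axis, from 0), by group; points are the 2 libraries of a group and lines their mean. At RUNX2 and RUNX3 all 4 libraries of 697 lie below all 4 of KOPN-8, and at RUNX1 both clone libraries lie above both control libraries of the same line.

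RUNX3 had few peaks in 697 and several times as many in KOPN-8. The 697 clone lists held 1 and 1 peaks there and the 697 control lists 1 and 2. The KOPN-8 clone lists held 10 and 7 peaks and the KOPN-8 control lists 6 and 9. No 697 library reached the lowest KOPN-8 library. The share averaged 0.187 ± 0.0678 peaks per 10000 in 697 and 1.21 ± 0.296 in KOPN-8 (SD, n = 4 each), so that of KOPN-8 was 6.45 times as high (exact permutation, two-sided p = 0.0286, adjusted p = 0.0429 over the 6 tests by line). The adjusted p for RUNX3 was 0.0571 with lists cut to equal length and 0.0857 with the strongest 50% of each list, at an exact p of 0.0286 in both, the smallest that 4 against 4 libraries allow. The adjusted p rose there because RUNX2 tests among the 6 gave larger p-values.

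Covered length gave the same order for RUNX3. Peaks covered 0.305 and 0.468 kb in the 697 clone, 0.335 and 0.532 kb in the 697 controls, 4.31 and 3.81 kb in the KOPN-8 clone and 3.31 and 3.59 kb in the KOPN-8 controls. As a share of all covered bases this was 0.145 ± 0.0284 per 10000 in 697 and 1.33 ± 0.154 per 10000 in KOPN-8 (SD, n = 4 each; exact permutation, p = 0.0286, adjusted p = 0.0429). On the rest of chromosome 1 the lines lay close, with 8.38 ± 0.0797% of the peaks of a list in 697 and 8.51 ± 0.115% in KOPN-8. In peaks per Mb, the RUNX3 window held 8.33 to 16.7 in 697, below the density of the lists as a whole, and 50 to 83.3 in KOPN-8, above it.

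A single RUNX3 region was called in all 8 libraries, at chr1:25273792-25274356. Its fold was 5.42 and 10 in the 697 clone, 6.88 and 4.58 in the 697 controls, 12.5 and 13.5 in the KOPN-8 clone and 10.8 and 10.5 in the KOPN-8 controls. Its percentile lay between 33.3 and 80.2 within the 697 lists and between 83.8 and 92.9 within the KOPN-8 lists. The other call of 697 at RUNX3 was 1 weak peak in control 2 at chr1:25260957-25261225.

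RUNX3 regions called in all 4 KOPN-8 libraries and in 0 libraries of 697 numbered 5 of 10, where 7.30% of all regions were. The strongest was chr1:25291378-25292096, one of the pair whose spacing matched that of the starts. Its fold was 12.9 and 12.4 in the KOPN-8 clone and 11.5 and 10 in the KOPN-8 controls, and it ranked between the percentiles 81.3 and 91.3. The other region of the pair, chr1:25255897-25257074, was the widest of the locus at 1178 bp and ranked between 48 and 70.2. Between and beside them lay chr1:25281490-25282172 (percentiles 52 to 64.7) and chr1:25242158-25243056 (63.7 to 79.2). The fifth, chr1:25274472-25274934, was weak, at 6.12 to 21.1, and lies beside the region open in all 8 libraries. The longest stretch of the window without a 697 peak, picked by that absence, ran from the start of the window to 25260956. It spans 61 kb and holds 4 regions called in at least 1 library of KOPN-8.

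**Figure D2:**
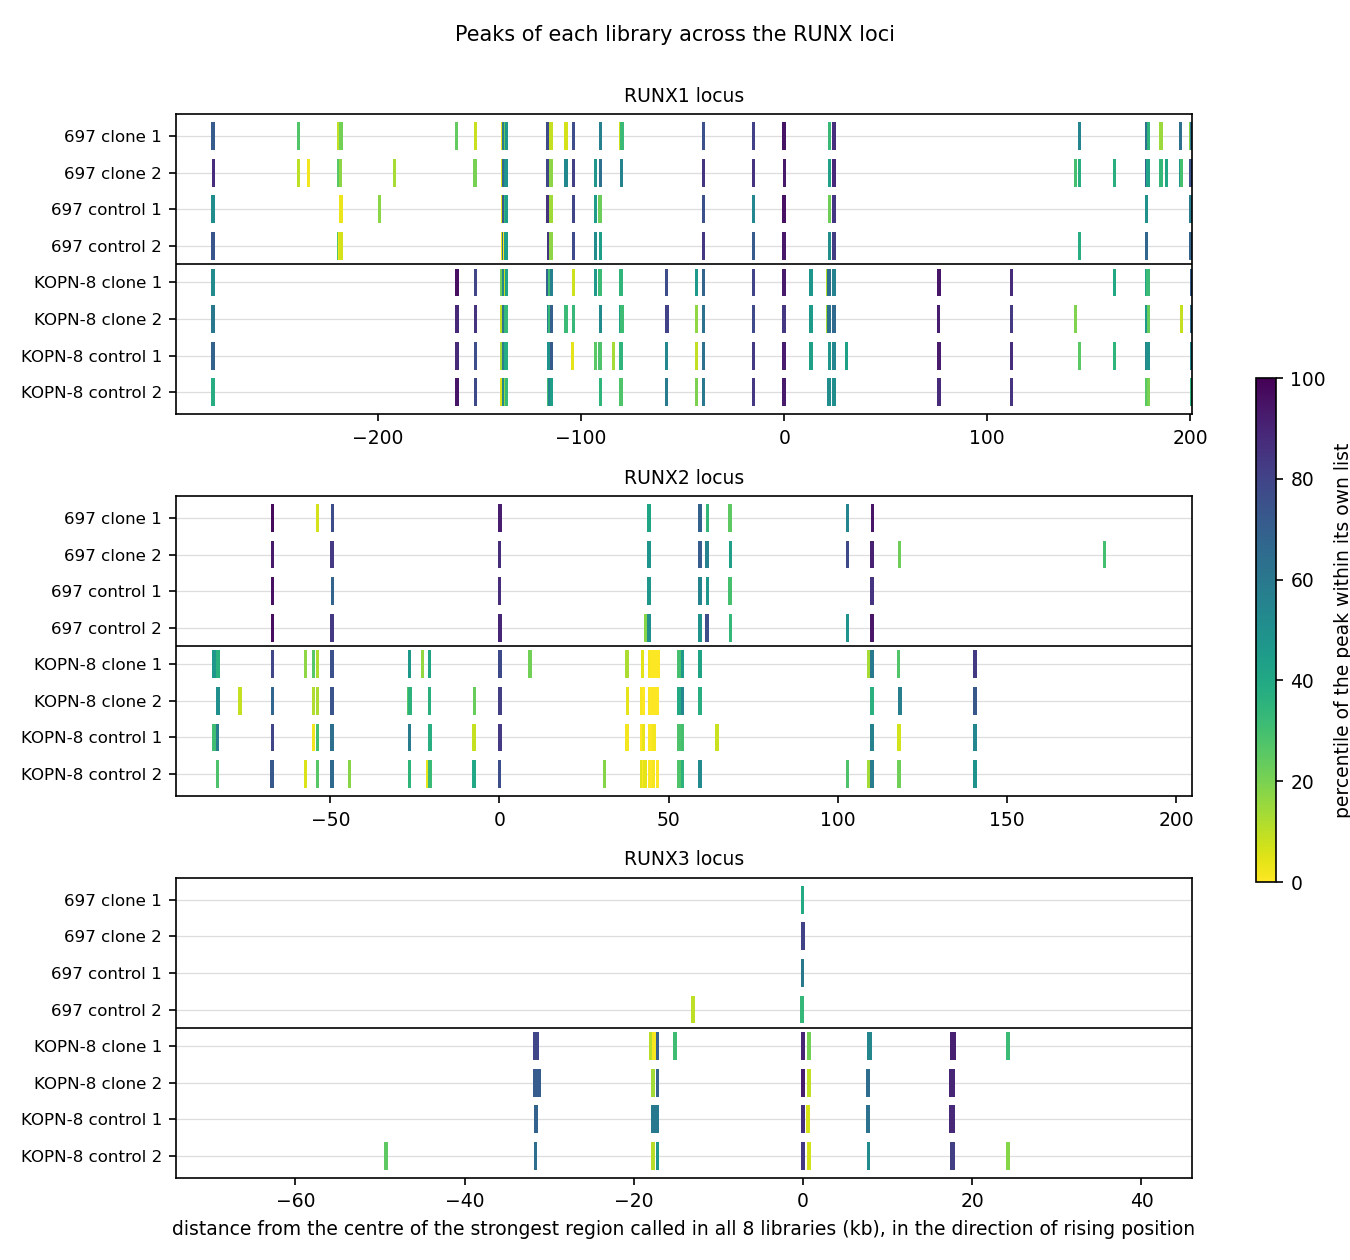
Peaks of each library (rows) along each locus, as distance in kb from the centre of the strongest region called in all 8 libraries; colour gives the percentile of a peak within its own list, and narrow peaks are widened to be visible. The RUNX3 rows of 697 hold 1 or 2 peaks each against 6 to 10 in KOPN-8, and the RUNX2 rows of KOPN-8 show a cluster of peaks of very low rank near 45 kb.

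RUNX2, the bone factor of the family, also held fewer peaks in 697 than in KOPN-8. The 697 clone lists held 10 and 11 peaks and the 697 control lists 8 and 10, while the KOPN-8 clone lists held 25 and 25 and the KOPN-8 control lists 21 and 27. The lines did not overlap. The share averaged 1.46 ± 0.0843 peaks per 10000 in 697 and 3.7 ± 0.53 in KOPN-8 (SD, n = 4 each; exact permutation, p = 0.0286, adjusted p = 0.0429). The share of covered bases was 1.85 ± 0.041 per 10000 in 697 and 3.13 ± 0.354 per 10000 in KOPN-8 (exact permutation, adjusted p = 0.0429, n = 4 each). The rest of chromosome 6 held 5.8 ± 0.0436% of the peaks of a list in 697 and 6.43 ± 0.0915% in KOPN-8.

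The RUNX2 difference depended on which part of the lists was used. In the stronger 50% of their lists, the 697 clone had 6 and 7 RUNX2 peaks, the 697 controls 5 and 6, the KOPN-8 clone 5 and 7 and the KOPN-8 controls 7 and 5. With lists reduced to that part, the difference in share, 697 minus KOPN-8, was -0.0038 peaks per 10000 (exact permutation, adjusted p = 0.971) and that in covered share turned to 0.242. With lists cut to equal length the differences were -1.18 (adjusted p = 0.0571) and -0.393 (exact permutation, adjusted p = 0.0857). Of the 39 RUNX2 peaks in the 4 lists of 697, 10.3% lay in the weakest 25% of their list, and of the 98 in the 4 lists of KOPN-8, 45.9% did.

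Some calls of low rank lay together in 1 stretch, and others lay elsewhere in the window. Between 45387297 and 45392441 on chromosome 6, over 5.14 kb, 6 regions lay less than 1 kb apart, a stretch picked out after its values were seen. The 697 clone libraries called 1 and 1 of the 6 regions and the 697 controls 1 and 2, at folds of 3.79 to 5.8 and percentiles of 18.3 to 50.4. The KOPN-8 clone libraries called 5 and 5 and the KOPN-8 controls 3 and 6, at folds of 2.06 to 3.39 and percentiles of 0.0201 to 4.92. The region of this stretch that was open in all 8 libraries, chr6:45389145-45390274, was one of the RUNX2 pair whose spacing matched that of the starts. The fold is relative to the local background, and is not a level of open chromatin.

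RUNX2 had 5 regions called in all 8 libraries, 13.9% of its regions against 20.4% of all regions. The one with the highest lowest rank was chr6:45344901-45346050, also the widest, with folds of 12.9 and 11.9 in the 697 clone, 11.2 and 11.6 in the 697 controls, 9.47 and 10.1 in the KOPN-8 clone and 10.1 and 9.07 in the KOPN-8 controls. It ranked at percentile 76.5 or above in every list. In the RefSeq gene table the gene SUPT3H, a subunit of the SAGA coactivator complex, overlaps RUNX2, so regions of this window cannot be given to 1 of these genes. The next was chr6:45278032-45278634, at percentiles of 93.3 to 97.6 in the 697 lists and 66.9 to 79.5 in the KOPN-8 lists. The region chr6:45295624-45296538, of the pair with a spacing like that of the starts, ranked between 63.7 and 83.4 over all 8 lists.

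Of the 36 RUNX2 regions, 8 were called in all 4 libraries of KOPN-8 and 0 libraries of 697 (22.2%, against 7.30% of all regions). None of these 8 lay in the stronger 50% of all 4 lists, and 4 lay in the weaker 50% of all 4. The strongest, chr6:45485756-45486161, had folds of 10.5 and 8.55 in the KOPN-8 clone and 6.05 and 6.06 in the KOPN-8 controls, and a lowest percentile of 49.5. The reverse pattern, all 4 libraries of 697 and 0 of KOPN-8, held for 2 regions (5.56%, against 5.85% of all regions). They were chr6:45406594-45407170, at percentiles of 33.6 to 76.2, and chr6:45413495-45414091, at 24.8 to 43.7. A share of 5.56% is close to that of all regions.

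**Figure D3:**
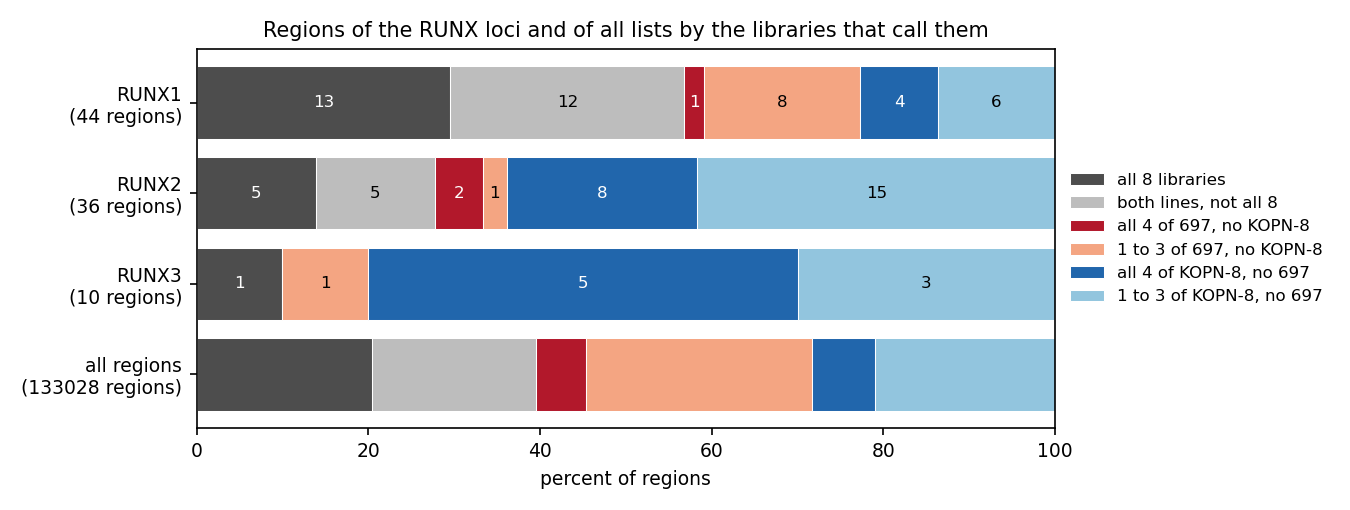
Percent of regions (horizontal axis) in each class of calling libraries, for the 3 loci and for all 133028 regions; numbers in the bars are counts of regions. Regions called in all 4 libraries of KOPN-8 and none of 697 make up 5 of 10 at RUNX3, 8 of 36 at RUNX2, 4 of 44 at RUNX1 and 7.30% of all regions.

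RUNX1, the family member of early B cell development, had many peaks in both lines, in the longest of the 3 windows. Per Mb, KOPN-8 held 48 to 62 peaks at RUNX1, 70 to 90 at RUNX2 and 50 to 83.3 at RUNX3. In 697 these densities were 38 to 64, 26.7 to 36.7 and 8.33 to 16.7. The RUNX1 window held 29 and 32 peaks in the 697 clone, 19 and 21 in the 697 controls, 29 and 31 in the KOPN-8 clone and 29 and 24 in the KOPN-8 controls. The lines overlapped. The share averaged 3.78 ± 0.744 peaks per 10000 in 697 and 4.25 ± 0.425 in KOPN-8 (SD, n = 4 each; exact permutation, p = 0.314, adjusted p = 0.314), and the share of covered bases did not pass either (exact permutation, adjusted p = 0.309). Chromosome 21 outside the window held more of the peaks in 697, at 1.29 ± 0.115% of a list against 1.09 ± 0.0211% in KOPN-8. As a percentage of the peaks of chromosome 21, RUNX1 held 2.82 ± 0.314% in 697 and 3.74 ± 0.377% in KOPN-8 (exact permutation, p = 0.0286, adjusted p = 0.0286 over the 3 loci), a measure added after the data were seen.

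Of the 44 RUNX1 regions, 13 were called in all 8 libraries (29.5%, against 20.4% of all regions). The region chr21:36398897-36399803 stood at the head of them. Its fold was 14.4 and 14 in the 697 clone, 14.2 and 13.3 in the 697 controls, 13.6 and 10.7 in the KOPN-8 clone and 12.8 and 13.1 in the KOPN-8 controls. It ranked between the percentiles 84.2 and 95.3 of the 8 lists. It was followed by chr21:36359125-36359952, at 59.9 to 84.6, and chr21:36383807-36384505, at 54.1 to 85.4. The widest region of the 3 loci, chr21:36260840-36262698 with 1859 bp, was also called in every library, at percentiles of 53.8 to 72.6.

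Some of the strongest RUNX1 regions of KOPN-8 were not called in 697 at all. The region chr21:36475116-36475746 had folds of 14.2 and 13.3 in the KOPN-8 clone and 13 and 11.6 in the KOPN-8 controls, at percentiles of 88 to 94.1. The region chr21:36510998-36511793 had folds of 11.9 and 10.5 in the KOPN-8 clone and 11.1 and 10.7 in the KOPN-8 controls, at percentiles of 83.1 to 88.2. Both lie in the longest stretch of the window without a 697 peak, 119 kb from 36423998 to 36542665, which was picked by that absence. In GRCh38 RefSeq places RUNX1 on the minus strand, so higher positions lie on the side of its 5′ end. Whether these regions lie inside the gene was not determined. The region chr21:36341239-36341833 was called in the same libraries, at folds of 9.32 and 9.92 in the clone and 6.01 and 6.85 in the controls of KOPN-8. With chr21:36355901-36356309, at percentiles of 9.18 to 46, such regions numbered 4 of 44 (9.09%, against 7.30% of all regions).

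The longest stretch of the window without a KOPN-8 peak, picked by that absence, lay on the other side. It ran from 36118195 to 36237608, again 119 kb, and 6 regions there were called in at least 1 library of 697. Such regions were not in excess at RUNX1. Over the window, 18.2% of regions were called in some but not all libraries of 697 and none of KOPN-8, against 26.3% of all regions. Those called in all 4 of 697 and none of KOPN-8 made up 2.27%, against 5.85%. The 697 calls in this stretch were weak. The only one present in all 4 libraries, chr21:36180497-36181235, had folds of 4.28 and 3.72 in the 697 clone and 3.06 and 3.16 in the 697 controls, at percentiles of 2.79 to 21.5. Beyond that stretch, chr21:36237609-36238581 had folds of 15 and 12.1 in the KOPN-8 clone and 11.4 and 13.8 in the KOPN-8 controls, and in 697 was called in clone 1 alone, at a fold of 4.48. This region falls outside the naming rule and was chosen after its values were seen.

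**Figure D4:**
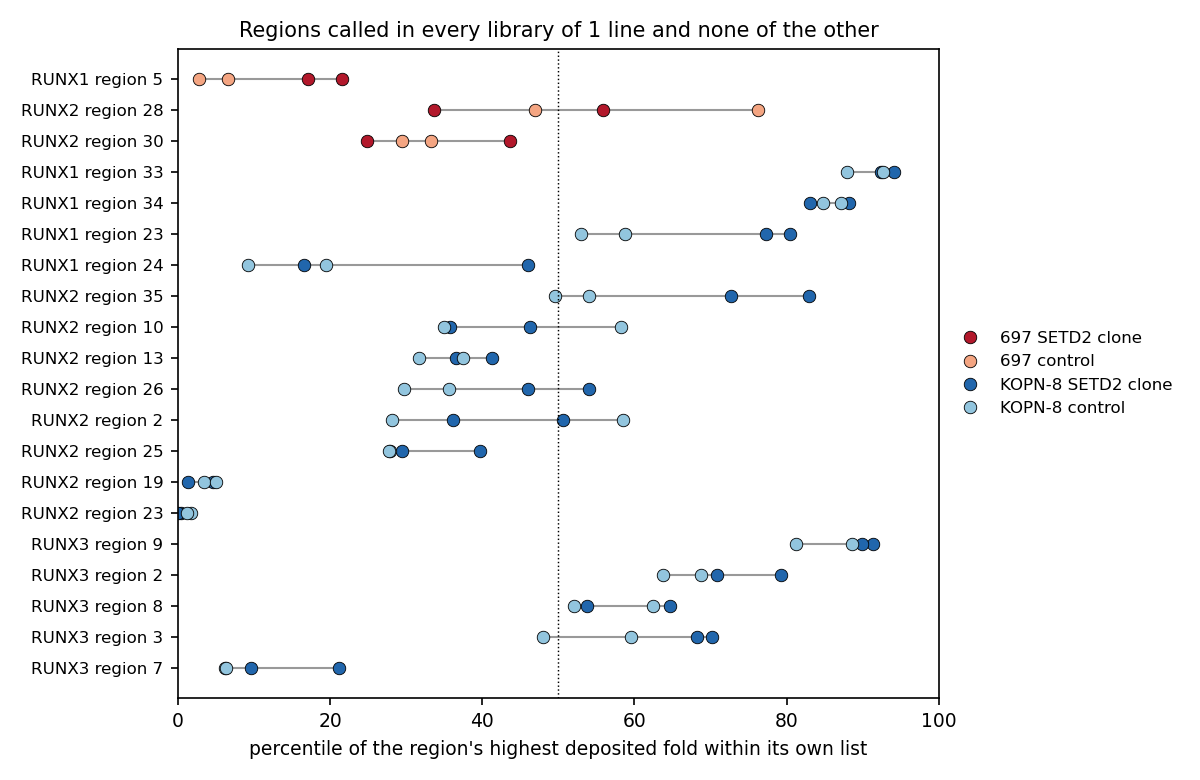
Percentile of the highest deposited fold of a region within each list that calls it (horizontal axis), for the 3 regions called in all 4 libraries of 697 and none of KOPN-8 and the 17 with the opposite pattern; points are libraries, region numbers run along each locus and the dotted line marks the middle of a list. The KOPN-8 regions span percentiles of 9.18 to 94.1 at RUNX1, 0.0201 to 83 at RUNX2 and 6.12 to 91.3 at RUNX3.

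Over the 3 loci, 3 of 90 regions were called in all 4 libraries of 697 and none of KOPN-8 (3.33%, against 5.85% of all regions), and 17 of 90 in all 4 of KOPN-8 and none of 697 (18.9%, against 7.30%). Of these 17, 6 lay in the stronger 50% of every list that called them, 3 at RUNX1 and 3 at RUNX3. Regions called in all 8 libraries made up 21.1%, close to the 20.4% of all regions. The overlap of covered bases between libraries, as a Jaccard index, was lowest between the lines at RUNX3. Between lines its mean over 16 pairs was 0.0909 at RUNX3, 0.268 at RUNX2 and 0.414 at RUNX1. Between clone and control of the same line it was 0.587 in 697 and 0.656 in KOPN-8 at RUNX3, 0.727 and 0.585 at RUNX2, and 0.549 and 0.692 at RUNX1, over 4 pairs each. At RUNX3 peaks covered 0.305 to 0.532 kb in 697 and 3.31 to 4.31 kb in KOPN-8, which alone keeps the index between lines low. Its value there repeats that difference in length and does not show that the lines use different sites. No index over all regions is given.

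The study set each SETD2 clone against its empty vector control. At RUNX1 both clone libraries held a larger share of peaks than both control libraries, in each line. In 697 the RUNX1 share was 4.6 and 4.18 peaks per 10000 in the clone and 3.32 and 3 in the controls. In KOPN-8 it was 4.31 and 4.79 in the clone and 4.12 and 3.77 in the controls. Over both lines the clone minus control difference was 0.919 peaks per 10000 (exact permutation with labels moved within a line, two-sided p = 0.0556, adjusted p = 0.167 over the 3 loci). This p is the smallest that the 36 arrangements can give. The difference was 1.23 in 697 and 0.605 in KOPN-8, and the test of these against each other gave p = 0.5 (exact permutation).

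The rest of chromosome 21 held a larger share in the 697 clone as well, and its part in the RUNX1 difference was not tested. Peaks of chromosome 21 outside the RUNX1 window made up 1.39 ± 0.0085% of a list in the 697 clone and 1.2 ± 0.0444% in the 697 controls, and 1.08 ± 0.0102% in the KOPN-8 clone and 1.1 ± 0.0268% in the KOPN-8 controls (SD, n = 2 each). As a percentage of the peaks of chromosome 21, RUNX1 held 3.22 and 2.91% in the 697 clone and 2.64 and 2.51% in the 697 controls, and 3.86 and 4.22% in the KOPN-8 clone and 3.54 and 3.36% in the KOPN-8 controls. The groups still did not overlap in either line (exact permutation, p = 0.0556, adjusted p = 0.167).

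Gained regions are those with peaks in both libraries of a clone and in neither control of its line, and lost regions the opposite. In the 697 clone 7 of 49 regions of the 3 loci were gained (14.3%, against 4.33% of all regions of the line) and 0 were lost (against 1.83%). All 7 were among the 34 RUNX1 regions (20.6%, against 7.96% of all regions on chromosome 21). Gained RUNX1 regions lay at low ranks, with the lower of their clone percentiles between 6.52 and 46.5. With lists cut to equal length 4 were gained at the 3 loci, all at RUNX1. In the strongest 50% of each list 2 were gained, 1 at RUNX1 and 1 at RUNX2. Without clone 1, where a call in clone 2 alone is enough, 15 were gained, 13 at RUNX1 and 2 at RUNX2. Shares over all regions under these settings are not given, so these counts have no background.

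The strongest gained RUNX1 region of the 697 clone was chr21:36594355-36594643, with folds of 7.41 and 5.57 in the clone and no call in KOPN-8. The next, chr21:36578529-36578800 and chr21:36319139-36319503, had folds of 5.13 and 5.12 and of 4.86 and 6.33, and were called in 4 and 1 libraries of KOPN-8. The following ones by rank, chr21:36584748-36585040 and chr21:36159858-36160414, had folds of 3.99 and 4.68 and of 4.58 and 3.33, and were called in 0 libraries of KOPN-8. Outside the naming rule, and chosen after its values were seen, the gained region chr21:36247030-36247330, at folds of 3.58 and 3.9, overlaps a region that all 4 KOPN-8 libraries called with folds of 9.67 and 10.9 in the clone and 8.76 and 9.33 in the controls.

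In the KOPN-8 clone 2 of 78 regions were gained (2.56%, against 3.61% of all regions of the line) and 0 were lost (against 3.81%). Both lay at RUNX1, at chr21:36420561-36420799, with folds of 3.66 and 3.88, and at chr21:36295499-36295785, with folds of 3.44 and 4.87. The region at 36295499 overlaps a region called in all 4 libraries of 697, at folds of 9.14 and 10.1 in the 697 clone and 9.44 and 8.85 in the 697 controls. With 1 library left out, which relaxes the rule for its arm, the KOPN-8 count was 5 to 7 gained. Lost regions were then 6 without control 1, 5 without control 2 and 1 without clone 2. Shares over all regions with a library left out are not given.

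RUNX2 and RUNX3 gave no difference between clone and control that passed the test. At RUNX2 the share was 1.59 and 1.44 peaks per 10000 in the 697 clone and 1.4 and 1.43 in the 697 controls, and 3.71 and 3.87 in the KOPN-8 clone and 2.98 and 4.25 in the KOPN-8 controls (difference over both lines 0.138, exact permutation, p = 0.722, adjusted p = 0.833). At RUNX3 it was 0.159 and 0.131 in the 697 clone and 0.175 and 0.285 in the 697 controls, and 1.49 and 1.08 in the KOPN-8 clone and 0.852 and 1.42 in the KOPN-8 controls (difference 0.0325, exact permutation, p = 0.833, adjusted p = 0.833). No region of RUNX2 or RUNX3 was gained or lost in either line with all libraries. RUNX2 had 13 regions in 697 and 33 in KOPN-8, and RUNX3 had 2 and 9. Over all regions, 4.33% were gained and 1.83% lost in 697, and 3.61% and 3.81% in KOPN-8. With so few regions, counts of 0 are not a result about these loci, and they rest on single libraries. Leaving out a library relaxes the rule for its arm, so counts tend to rise, and shares over all regions under that rule are not given. In the KOPN-8 clone RUNX2 had 2 gained and 5 lost regions without control 1, 3 gained and 1 lost without control 2, 2 gained and 1 lost without clone 2, and 1 gained without clone 1. RUNX2 in the KOPN-8 clone also had 2 gained regions with lists cut to equal length and 3 lost with calls covering at least 50% of a region. In the 697 clone RUNX2 had 2 gained regions without clone 1, 1 gained without clone 2, 1 gained without control 2, 1 lost without control 1 and 1 gained in the strongest 50% of each list. At RUNX3, 1 region was lost in the 697 clone without control 1. In the KOPN-8 clone 1 RUNX3 region was lost without control 1, 1 gained without clone 2 and 1 gained with calls covering at least 50% of a region.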

How the data were processed

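ATAC-seq libraries of 697 and KOPN-8 were taken as 1 peak list each. The submitters' processing notes name Bowtie2, hg19 and MACS2. No source used here gives their versions or settings, or says how duplicates and the Tn5 offset were handled. Each list deposited by the authors holds a chromosome, start, end, name and 1 value per peak, read here as a fold over local background (a linear ratio). No header names that column, so the unit is an inference: in each list the 14 most repeated values, which take 12.6 to 19.1% of the peaks, are evenly spaced, as a fold over a shared background floor would be. Percentiles within a list do not depend on this reading. Lists had not been pooled over replicates. Positions are printed counted from 1.

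The windows, the members and the lists of regions were chosen with earlier results of these data known. Lists were merged into regions where peaks shared at least 1 base, over all 8 lists for the comparison of lines and over the 4 lists of a line for the comparison of arms. Any peak of a library inside a region counted as its call. Shares were peaks, or covered bases, per 10000 of the list. Lines were compared by two-sided exact permutation over the 70 splits of 8 libraries, with Benjamini-Hochberg adjustment over 3 loci and 2 measures. Arms were compared by permuting labels within lines (36 arrangements), adjusted over 3 loci. The threshold was 0.05, which the comparison of arms cannot reach, as its smallest exact permutation p is 0.0556. All libraries of a line come from 1 cell line, and p-values measure only the spread between them. Counts of regions had no test and are set beside the percentage over all regions.

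Regions were named by rule, per locus: the 3 called in all 8 libraries and the 5 called in 1 line only with the highest smallest percentile, up to 5 gained and 5 lost regions per line, and the widest. Alternatives were the strongest 50% of each list, lists of equal length, calls covering at least 50% of a region, peaks wholly inside the window, leaving out 1 library at a time and a fit with the replicate number as a block. The share of the own chromosome was added later, with the data seen. The code that merges and calls regions was tested on simulated lists. Python 3.11.15, numpy 2.4.6 and matplotlib 3.10.9 were used.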

Additional observations from a re-analysis of the deposited data

How the results depend on the processing

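By line, the difference in share of peaks (697 minus KOPN-8, per 10000) kept its direction under all alternatives run at RUNX1 and RUNX3 and, for peaks, at RUNX2. With lists cut to equal length, the RUNX3 differences were -1.01 in peaks and -1.18 in covered bases and those of RUNX2 -1.18 and -0.393, and none passed after adjustment. As reported, the RUNX3 differences were -1.02 and -1.18. At equal length both kept the smallest exact permutation p, 0.0286, at an adjusted p of 0.0571. In the strongest 50% of each list the RUNX3 differences were -1.27 and -1.34, the RUNX2 difference in peaks was -0.0038, and that in covered bases was reversed at 0.242. As a percentage of the peaks of the own chromosome the differences were -0.927 at RUNX1, -0.322 at RUNX2 and -0.119 at RUNX3. All 3 passed (exact permutation, adjusted p = 0.0286 over the 3 loci). The cause of these changes was not tested, except that equal length and the stronger 50% leave fewer peaks.

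With 1 library left out, the line differences ranged from -0.748 to -0.212 (RUNX1 peaks), -0.852 to -0.343 (RUNX1 covered), -2.48 to -2.06 and -1.4 to -1.14 (RUNX2) and -1.14 to -0.929 and -1.26 to -1.13 (RUNX3). The clone minus control differences ranged from 0.798 to 1.04 at RUNX1, from -0.178 to 0.454 at RUNX2 and from -0.108 to 0.173 at RUNX3, so the sign at RUNX2 and RUNX3 rests on single libraries: it was reversed at -0.178 and -0.108 without KOPN-8 control 1, and at -0.0683 for RUNX3 without KOPN-8 clone 1.

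Regions called in all 4 libraries of 697 and none of KOPN-8 were 3 as reported, 1 in the strongest 50%, 1 with calls covering 50% of a region and 3 to 4 with a library left out; the opposite class was 17 as reported, 8 in the strongest 50% and 17 to 21. Gained regions of the 697 clone were 7 as reported, 4 at equal length, 2 in the strongest 50% and 7 to 15 with a library left out, and lost ones 0 to 2. Gained regions of the KOPN-8 clone were 2 as reported, 4 at equal length, 1 in the strongest 50% and 5 to 7, and lost ones 0 as reported, 3 with calls covering 50% of a region and 0 to 6. Leaving out a library relaxes the rule for its arm, so counts then tend to be higher. Shares over all regions under these alternatives are not given.

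Replicate numbers were not shown to pair libraries: deviations of replicates in clone and control correlated at 0.0029 in 697 and -0.003 in KOPN-8 over all regions. With the replicate block the clone minus control differences of 0.919, 0.138 and 0.0325 had exact permutation p-values of 0.125, 0.625 and 1, where 0.125 is the smallest that 4 pairs allow, and no call changed. Read depth is unknown, so weak regions called in 1 line only may be open in both.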
